A study of Mus musculus with 5 samples.

Results

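The Hox genes of the mouse lie in 4 clusters, Hoxa, Hoxb, Hoxc and Hoxd, and were taken here as every row of the count table whose gene symbol is Hox followed by the letter a, b, c or d and a number. There were 39 such genes among 22869 gene symbols, and all 39 had a row: 11 in Hoxa, 10 in Hoxb, 9 in Hoxc and 9 in Hoxd. Hoxb3 and Hoxa10 had more than 1 transcript row, and each gene was represented by its row with the highest mean count. The 14 genes with enough reads for a test all carried paralog numbers from 1 to 8, none of them passed that test between mutant and control, and the 16 genes numbered 9 to 13 were at or near 0 in every library.

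Hox genes encode homeodomain transcription factors that set positional identity along the head to tail axis. Their order on the chromosome follows their order of use: the low-numbered genes at one end act early and toward the head, and the high-numbered genes at the other end act late and toward the tail. A paralog group is the set of genes in the 4 clusters that carry the same number. In the gut, Hox genes are known from both the epithelium and the surrounding mesenchyme, with the highest-numbered groups known from the hindgut. DNA methylation and Polycomb repression are both known to act on Hox genes in cultured cells and tumours, and Dnmt1 is the enzyme that copies methylation to the new strand after replication.

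RNA was sequenced from intervillus cells, the proliferating epithelium between the villi of the newborn gut, cut by laser from the proximal jejunum of mice on postnatal day 0. The 2 mutant libraries, numbered 4 and 6, came from Dnmt1 L/L; VillinCre mice, in which Cre is driven by the gut epithelial villin promoter, and the 3 control libraries, numbered 1, 2 and 3, from Dnmt1 L/+ littermates. Mutant areas were picked where neighbouring sections lacked Ki67 staining and control areas where it was present, so loss of Dnmt1 and loss of Ki67 cannot be told apart in any comparison below. Villin-driven Cre leaves mesenchymal, neural, endothelial and immune cells unrecombined. Neither the labels nor the files say whether each library came from its own mouse, so the p-values speak of variation among these 5 libraries, some or all of which may be technical.

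With 1 row per gene the mutant libraries held 8730268 and 10260760 reads and the control libraries 13356901, 13101286 and 10530200 reads. Dnmt1 was 39.1 ± 1.93 CPM in mutants (SD, n = 2) and 115 ± 17.8 CPM in controls (SD, n = 3). On the log2 scale the fold change was -1.56 with an SE of 0.16, and the edgeR adjusted p was 3.74e-05. CPM are counts scaled to library depth with TMM factors, and fold changes are mutant over control throughout. The 4 Y-linked genes Ddx3y, Eif2s3y, Kdm5d and Uty together held 4 and 3 counts in the mutants, against 3160, 2900 and 2710 counts in the controls, so every difference between the groups is also one between libraries without and with Y-linked reads. The 14 epithelial markers were all detected, with summed CPM of 6173 and 6239 in mutants and 6377, 6792 and 6670 in controls. Both mutant sums lay below all control sums, and the median log2 fold change of the list was -0.12. Of these markers, 2 rose by edgeR, the keratins Krt20 (2.96-fold) and Krt18 (1.73-fold), and 1 fell, Cdx2, described below. Over all genes tested, 6.11% were called higher and 4.17% lower in the mutants.

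The promoters of 2 pairs of Hox genes are shown because each pair joins a gene with reads to one of its own cluster with none or nearly none. Hoxa2 and Hoxd8 were the genes with the highest control FPKM of Hoxa and Hoxd, and Hoxa13 and Hoxd13 are the last numbered genes of the same clusters. Each sequence runs 5′ to 3′ from 250 bases before to 50 bases after the RefSeq gene start in build GRCm38.p6, and capitals mark each CG dinucleotide, the letters that DNA methylation acts on. Hoxa2 and Hoxa13 are read from the minus strand at chr6:52164782-52165081 and chr6:52260831-52261130, and Hoxd8 and Hoxd13 from the plus strand at chr2:74704365-74704664 and chr2:74667975-74668274.
Hoxa2: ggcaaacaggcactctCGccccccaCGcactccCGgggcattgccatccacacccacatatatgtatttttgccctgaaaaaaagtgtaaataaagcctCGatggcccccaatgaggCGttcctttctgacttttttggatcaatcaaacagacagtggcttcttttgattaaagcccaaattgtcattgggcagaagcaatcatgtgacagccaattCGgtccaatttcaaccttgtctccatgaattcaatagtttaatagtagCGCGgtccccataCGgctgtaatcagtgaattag
Hoxa13: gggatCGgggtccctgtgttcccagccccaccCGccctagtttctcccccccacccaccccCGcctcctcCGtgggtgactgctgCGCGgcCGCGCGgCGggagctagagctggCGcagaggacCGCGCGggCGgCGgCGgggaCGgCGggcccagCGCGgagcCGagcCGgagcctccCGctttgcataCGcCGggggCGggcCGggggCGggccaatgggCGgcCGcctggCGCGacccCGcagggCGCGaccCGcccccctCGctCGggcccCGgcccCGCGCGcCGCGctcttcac
Hoxd8: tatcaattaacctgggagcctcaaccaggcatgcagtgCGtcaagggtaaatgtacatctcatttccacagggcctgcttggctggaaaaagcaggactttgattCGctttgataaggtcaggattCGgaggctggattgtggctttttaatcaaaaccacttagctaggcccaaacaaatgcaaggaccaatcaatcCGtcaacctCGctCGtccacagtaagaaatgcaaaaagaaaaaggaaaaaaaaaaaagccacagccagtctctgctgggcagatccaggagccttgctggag
Hoxd13: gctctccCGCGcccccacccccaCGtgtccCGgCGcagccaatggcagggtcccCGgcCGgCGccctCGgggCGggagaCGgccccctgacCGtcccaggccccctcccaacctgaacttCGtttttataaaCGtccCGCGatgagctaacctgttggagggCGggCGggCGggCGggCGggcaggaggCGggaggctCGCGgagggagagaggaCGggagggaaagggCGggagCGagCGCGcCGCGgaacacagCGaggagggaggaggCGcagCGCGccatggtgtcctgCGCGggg

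In both pairs the gene with reads had the CG-poorer promoter. Hoxa2 had 9 CG and Hoxd8 had 6, while Hoxa13 had 45 and Hoxd13 had 37, the most of the 24 Hox promoters read. Of the 32851 promoters of 300 bases in the table, 54.2% had fewer CG than Hoxa2 and 43.6% fewer than Hoxd8, against 98.1% for Hoxa13 and 94.4% for Hoxd13. The pattern did not extend to every gene: Hoxa5 had reads in every library and 29 CG, and Hoxd11, at 0 counts throughout, had 4 CG at one of its start sites and 25 at the other. The table held 24 promoters of 22 Hox genes, with a median of 14.5 CG and a range of 4 to 45, where all promoters had a median of 7. Split by reads, the median was 11.5 CG (range 6 to 29) over 6 promoters of tested genes. It was 16.5 (4 to 45) over 10 promoters of genes with too few reads to test and 18.5 (4 to 37) over 8 promoters of genes at 0. The ranges overlapped widely, so the printed pairs do not stand for the family. These are letters in 1 window and not methylation, which was not measured in the data used here.

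Levels were compared between genes per length, with the deposited FPKM (fragments scaled to transcript length and to library depth). These FPKM did not follow the counts evenly. The ratio of CPM to FPKM had a coefficient of variation over the libraries of 52.4% for Hoxb2 and 33.1% for Hoxd8, as described below. Close ranks between genes are therefore uncertain. Hoxa led all 4 clusters. Hoxa2, a gene of the hindbrain and branchial arches, had the highest mean of the Hox genes in both groups, at 4.73 and 5.67 FPKM in the mutants and 4.96, 4.05 and 5.89 FPKM in the controls. Its mean FPKM lay above that of 56.0% of the 18174 genes with any signal in mutants and 58.3% of 19879 such genes in controls, so the top of the family sat near the middle of the transcriptome. Hoxa5, known for roles in lung and gut development, came next at 5.38 and 3.56 FPKM in the mutants and 4.06, 2.83 and 4.89 FPKM in the controls. Hoxa3, needed for the thymus and parathyroid, averaged 3.48 ± 0.457 FPKM in mutants and 3.41 ± 0.928 FPKM in controls, and Hoxa4 averaged 3.26 ± 1.19 FPKM in mutants and 3.13 ± 0.924 FPKM in controls (SD, n = 2 and 3). Hoxa2 was above Hoxa3 and Hoxa4 within each of the 5 libraries, but Hoxa5 was above Hoxa2 in mutant 4. The ranges of Hoxa3, Hoxa4 and Hoxa5 overlapped.

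The step down after Hoxa5 was steep. Hoxa6 was 0.983 and 0.159 FPKM in the mutants and 0.171, 0.0424 and 0.973 FPKM in the controls, on 2 and 3 counts and 4, 1 and 6 counts, so its FPKM rest on a handful of reads. Hoxa7 had 1 and 2 counts in the mutants and 4, 2 and 4 in the controls. Counts of Hoxa9 and Hoxa10 did not exceed 8 in any library, Hoxa13 had 1 count in mutant 6 and 0 elsewhere, and Hoxa11 had 0 counts throughout.

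Hoxb was the second cluster by level and its signal ran from Hoxb2 to Hoxb7. Hoxb7 was its highest gene, at 3.59 and 2.32 FPKM in the mutants and 1.19, 2.04 and 1.44 FPKM in the controls. Hoxb5 averaged 1.38 ± 0.579 FPKM in mutants and 1.31 ± 0.526 FPKM in controls, and Hoxb4, known from blood stem cells, 1.55 ± 0.344 FPKM in mutants and 1.05 ± 0.255 FPKM in controls. Hoxb1 and Hoxb13, the end genes, had 0 counts in all 5 libraries, and Hoxb8 and Hoxb9 did not exceed 6 counts in any. Hoxb6, between Hoxb5 and Hoxb7, had 8 and 4 counts in the mutants and 12, 15 and 10 in the controls, just under the filter. In Hoxc the mean level was lower at each step in number from Hoxc4 to Hoxc6: Hoxc4 averaged 1.35 ± 0.147 FPKM in mutants and 0.839 ± 0.210 FPKM in controls, Hoxc5 0.630 ± 0.179 FPKM in mutants and 0.750 ± 0.127 FPKM in controls, and Hoxc6 0.278 ± 0.0648 FPKM in mutants and 0.460 ± 0.265 FPKM in controls. Hoxc8 was uneven, with 0 and 7 counts in the mutants and 0, 8 and 1 in the controls. In Hoxd a single gene stood out, Hoxd8, with 0.995 and 1.06 FPKM in the mutants and 0.804, 1.82 and 1.09 FPKM in the controls. Hoxd3 had 10 and 5 counts in the mutants and 11, 6 and 6 in the controls, and Hoxd4 had 2 and 8 in the mutants and 11, 4 and 3 in the controls.

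**Figure D1:**
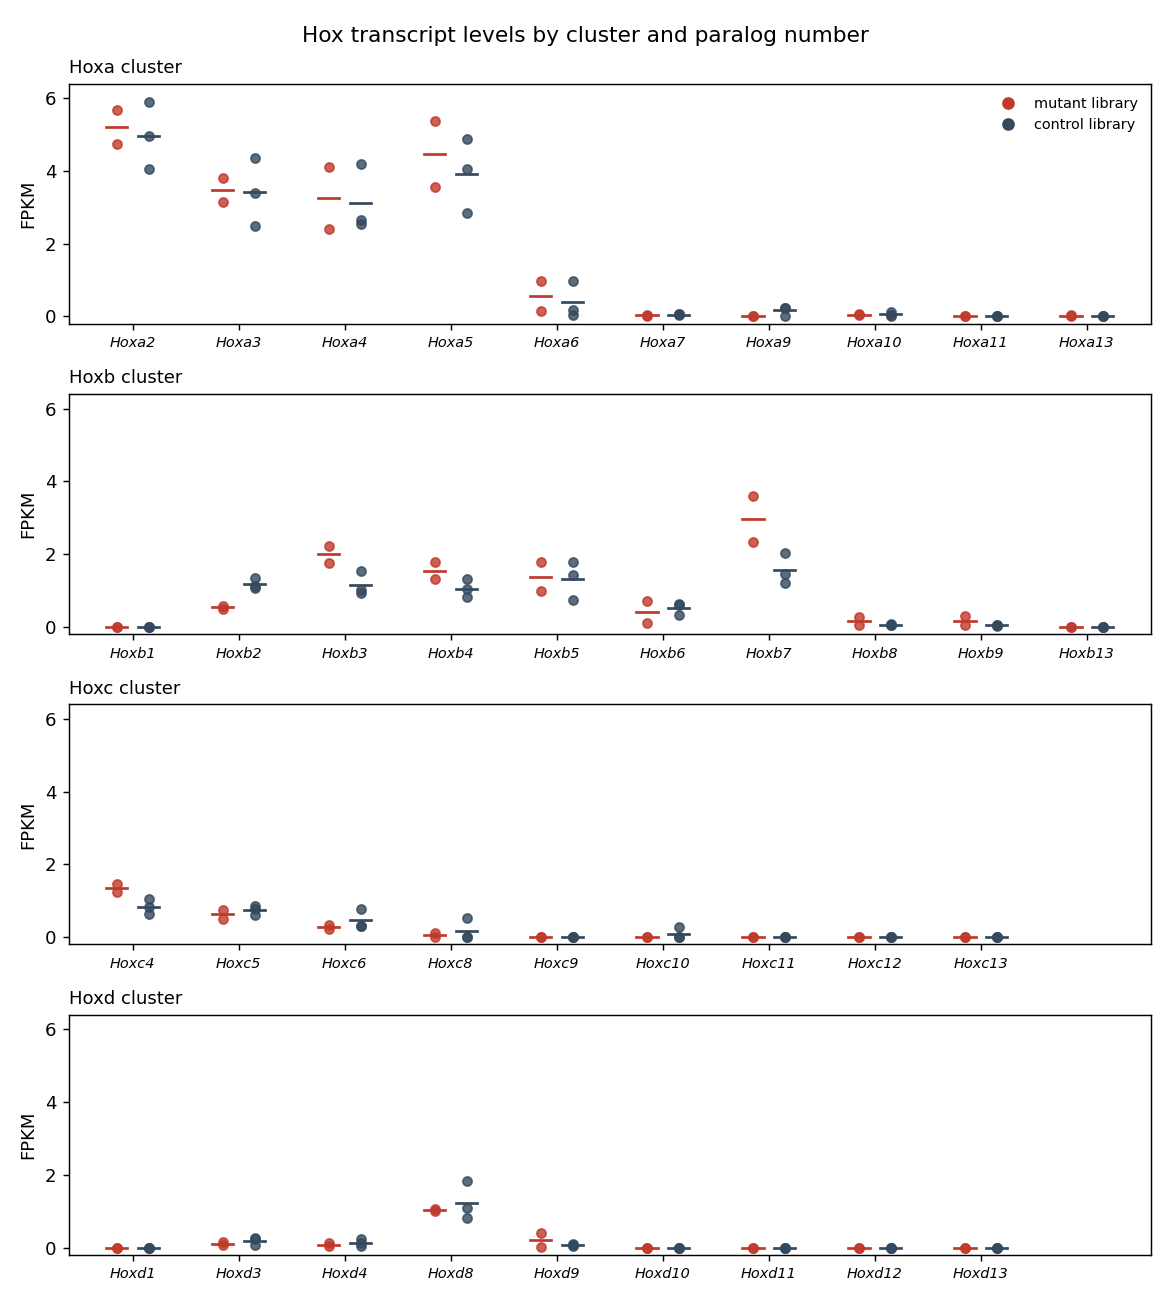
Deposited FPKM (vertical axis, linear) of 38 Hox genes, 1 panel per cluster with genes in order of paralog number; points are libraries and bars group means, mutants (red) left of controls (dark). Levels were highest at Hoxa2 to Hoxa5, lower at Hoxb2 to Hoxb7, Hoxc4 to Hoxc6 and Hoxd8, and at or near 0 from number 9 on.

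Cut after number 8, the highest number of a tested gene, the counts lay almost wholly on the low side in both genotypes, although the drop came after Hoxa5, Hoxb7, Hoxc6 and Hoxd8 in the single clusters. The cut was set from these same counts, so all genes above it had too few reads to test by construction. The 23 genes numbered 1 to 8 took 98.6% of all Hox counts in the mutants and 98.3% in the controls. The 16 genes numbered 9 to 13 took the remaining 1.36% in mutants and 1.73% in controls, or 21 counts in the mutants and 46 in the controls. By library those 16 genes summed to 14 and 7 counts in the mutants and 13, 9 and 24 in the controls, and 9 of them had no read anywhere. Hoxb1 and Hoxd1 were the other genes without a read, which makes 11 of 39. A count of 0 allows a level of up to 0.265 and 0.231 CPM in mutants 4 and 6 and 0.165, 0.178 and 0.211 CPM in controls 1, 2 and 3 (3 counts per library; counting error only). The genes at 0 everywhere were Hoxa11, Hoxb1, Hoxb13, Hoxc9, Hoxc11, Hoxc12, Hoxd1, Hoxd10, Hoxd11, Hoxd12 and Hoxd13. Of the other high-numbered genes, Hoxb9 had 5 and 3 counts in the mutants and 4, 2 and 5 in the controls, Hoxc10 had 0 counts in the mutants and 2 in control 3, Hoxc13 0 counts in the mutants and 1 in control 3, and Hoxd9 5 and 1 counts in the mutants and 4, 5 and 6 in the controls.

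Between genotypes, 14 of the 39 genes passed the low-count filter of edgeR and 0 of these 14 passed its test at an adjusted p under 0.05. Over all genes tested, 10.3% passed, 6.11% higher and 4.17% lower in the mutants, so a count of 0 among 14 is not far from that background. At an unadjusted p under 0.05 there was 1 Hox gene, Hoxb3, where the background was 25.6% of genes. DESeq2 called 0 as well, with 1 gene at an unadjusted p under 0.05, and the edgeR exact test and limma-voom called 0 with 2 each. The median log2 fold change was 0.23 over the 14 genes and -0.01 over all genes tested. Of the 14, 11 had a value above 0, where 49.2% of all genes did. A gene that misses the test is not shown to be equal: the median standard error of these log2 fold changes was 0.42, so the intervals are wide.

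Hoxb3, a gene of the hindbrain and pharyngeal region, came nearest to the threshold. Its counts were 83 and 85 in the mutants and 60, 73 and 62 in the controls, which is 7.34 and 6.56 CPM in the mutants and 3.30, 4.32 and 4.37 CPM in the controls. Both mutants lay above all controls. The log2 fold change was 0.80 ± 0.30 (± SE here and below; edgeR adjusted p = 0.109), a fold of 1.74 with a 95% interval of 1.11 to 2.72 that takes no account of the number of genes tested. Leaving out any 1 library kept it between 0.68 and 0.88, with adjusted p between 0.123 and 0.350, and its lowest adjusted p over all settings was 0.0756 with the edgeR exact test.

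Hoxb7 showed a like separation on fewer reads. It had 36 and 40 counts in the mutants and 20, 36 and 27 in the controls, or 3.18 and 3.09 CPM in mutants against 1.10, 2.13 and 1.90 CPM in controls. Both mutants were again above all controls, and the log2 fold change was 0.88 ± 0.44 (edgeR adjusted p = 0.227; 95% interval -0.07 to 1.82). Hoxd8 was 1.68 and 1.62 CPM in mutants and 1.27, 1.12 and 1.27 CPM in controls, with a log2 value of 0.43 ± 0.50 (95% interval -0.64 to 1.51; edgeR adjusted p = 0.625). Hoxb2 was the last gene whose mutants both exceeded all controls in CPM. These 4 of 14 genes, Hoxb2, Hoxb3, Hoxb7 and Hoxd8, compare with 21.7% of all genes tested, and 0 of 14 had both mutants below all controls, against 21.8%.

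Hoxb2, a hindbrain gene, pointed in opposite directions in the 2 deposited tables. Its counts of 19 and 25 in the mutants and 30, 24 and 22 in the controls gave 1.68 and 1.93 CPM in mutants against 1.65, 1.42 and 1.55 CPM in controls. The deposited FPKM were 0.501 and 0.567 in the mutants and 1.11, 1.06 and 1.33 in the controls, so there both mutants lay below all controls. On the counts the log2 fold change was 0.23 ± 0.47 (95% interval -0.78 to 1.23; edgeR adjusted p = 0.802), and on log2(FPKM + 0.1) it was -0.99 (limma adjusted p = 0.256). If FPKM were a rescaling of the counts, the ratio of CPM to FPKM would differ between libraries only by a factor shared by all genes. The ratio's coefficient of variation over the 5 libraries was 52.4% for Hoxb2, 11.1% for Hoxa2 and 19.3% for Hoxb3. It was lowest for Hoxa7 and Hoxa10, at 7.0% each, so part of the 11.1% may be such a shared factor. Hoxd8, whose ratio varied by 33.1%, also went from positive on counts to -0.17 on log2(FPKM + 0.1), and Hoxc4, with overlapping groups in CPM, was separated in FPKM at 1.45 and 1.24 in the mutants and 1.05, 0.839 and 0.628 in the controls. By FPKM both mutants were above all controls in 3 of the 14 genes (16.6% of all genes) and below them in 1 (19.6%).

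**Figure D2:**
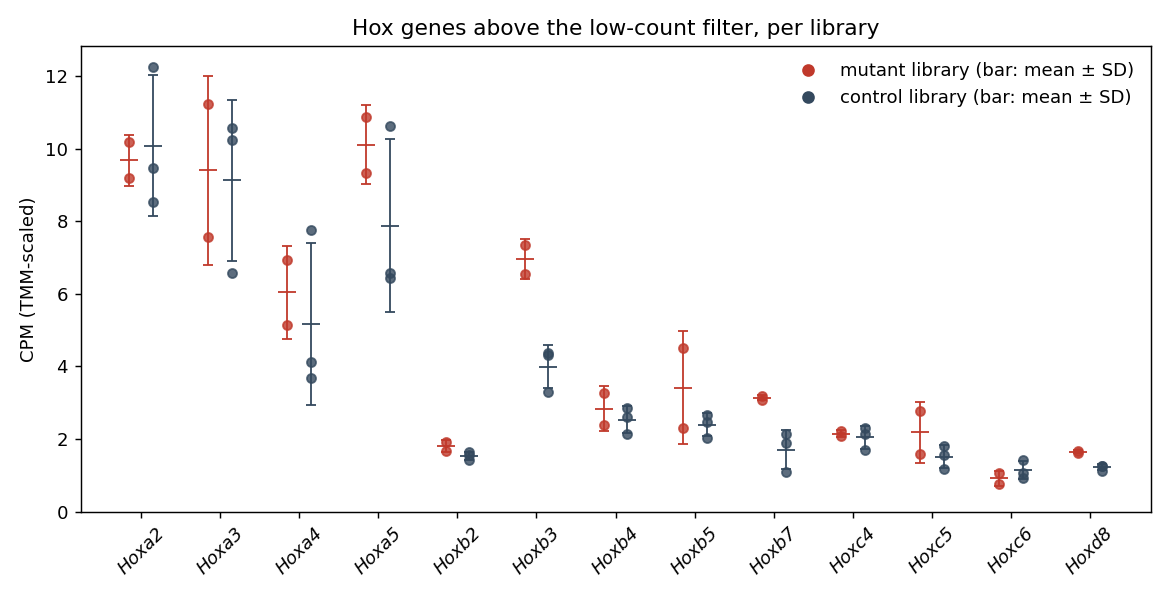
TMM-scaled CPM (vertical axis, linear from 0) of 13 Hox genes above the low-count filter; points are the 2 mutant (red, left) and 3 control (dark, right) libraries, and bars are mean ± SD. Hoxb3 has mutants at 7.34 and 6.56 CPM above controls at 3.30 to 4.37 CPM, while the libraries of Hoxa2, Hoxa3 and Hoxa4 are interleaved.

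Hoxa2, Hoxa3 and Hoxa5 had the narrowest intervals of the 14. Hoxa2 had 115 and 119 counts in the mutants and 172, 144 and 174 in the controls, or 10.2 and 9.18 CPM in mutants against 9.47, 8.52 and 12.3 CPM in controls, and its log2 fold change was -0.06 with a 95% interval of -0.58 to 0.47. Hoxa3 was 11.2 and 7.56 CPM in mutants and 10.2, 6.57 and 10.6 CPM in controls (0.04; -0.57 to 0.65). Changes beyond 1 log2 unit either way lie outside both intervals. Hoxa5 was 10.9 and 9.34 CPM in mutants and 6.44, 6.57 and 10.6 CPM in controls, and control 3 alone reached the mutants' range (0.36; -0.23 to 0.96). Hoxa4 was 5.13 and 6.94 CPM in mutants and 4.13, 3.67 and 7.75 CPM in controls, with control 3 the highest of all (0.23; -0.54 to 1.01).

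The other tested genes of Hoxb and Hoxc had 10 to 52 counts per library. Hoxb5 was 4.51 and 2.31 CPM in mutants and 2.48, 2.66 and 2.04 CPM in controls, with a log2 value of 0.50 ± 0.42 (95% interval -0.40 to 1.40; edgeR adjusted p = 0.483), with mutant 4 above and mutant 6 among the controls. Hoxb4 was 3.27 and 2.39 CPM in mutants and 2.86, 2.13 and 2.61 CPM in controls, with interleaved libraries (0.16 ± 0.40; 95% interval -0.71 to 1.02; edgeR adjusted p = 0.846). In Hoxc, Hoxc4 was 2.21 and 2.08 CPM in mutants and 2.15, 2.31 and 1.69 CPM in controls (0.06 ± 0.43; 95% interval -0.87 to 0.99; edgeR adjusted p = 0.947). Hoxc5 split the mutants, with 1.59 and 2.78 CPM in them against 1.82, 1.18 and 1.55 CPM in controls (0.53 ± 0.48; 95% interval -0.50 to 1.56; edgeR adjusted p = 0.521). Hoxc6 was 0.917 ± 0.205 CPM in mutants and 1.14 ± 0.252 CPM in controls (-0.32 ± 0.57; 95% interval -1.54 to 0.91; edgeR adjusted p = 0.774).

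**Figure D3:**
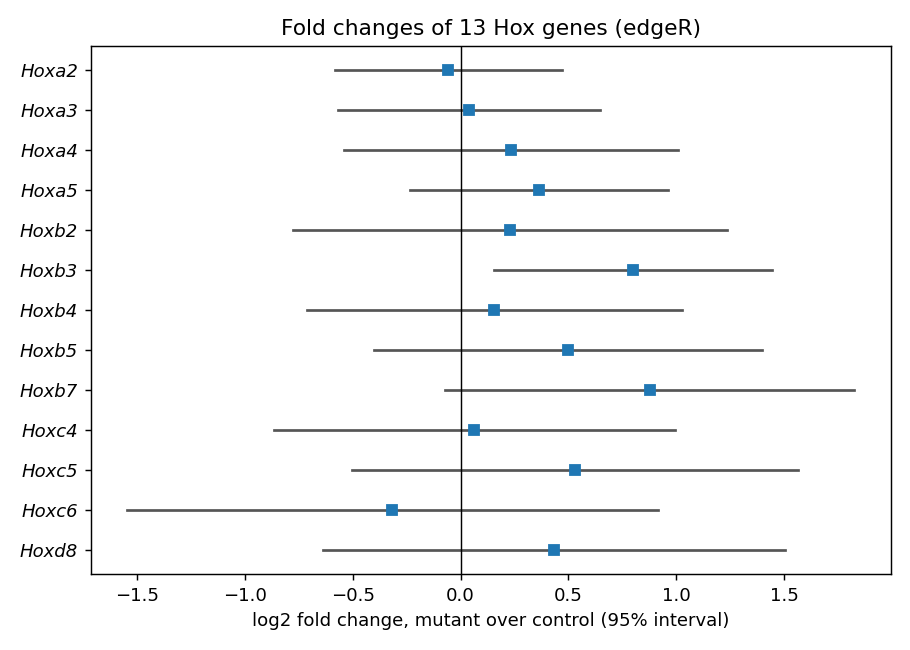
Log2 fold change, mutant over control (horizontal axis), of 13 tested Hox genes with 95% intervals from the edgeR fit, not adjusted for the number of genes. The interval of Hoxb3 runs from 0.16 to 1.44, the other 12 span 0, and Hoxa2 and Hoxa3 have the intervals closest to 0.

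By cluster, the 5 tested Hoxb genes all had values above 0 in the default fit, from 0.16 to 0.88, while Hoxa2 to Hoxa5 ran from -0.06 to 0.36. The sign turned for Hoxb2 on FPKM, and for Hoxb4 and Hoxb5 when 1 library was left out. Hoxb6, just under the filter, went the other way, with a mean of 0.508 CPM in mutants and 0.751 CPM in controls. Summed over all members, Hoxb reached 21.3 and 17.1 CPM in the mutants and 12.5, 13.9 and 13.9 CPM in the controls. Both mutants exceeded all controls, but the sum includes Hoxb3 and Hoxb7, singled out above, so it is not a further result. Those genes averaged 6.95 and 3.14 CPM in mutants and 4.00 and 1.71 CPM in controls. The whole Hoxb sum averaged 19.22 CPM in mutants and 13.45 CPM in controls, and the sum without them was not tested. Hoxa summed to 38.4 and 34.4 CPM in the mutants and 31.8, 26.2 and 43.3 CPM in the controls, with control 3 above both mutants. Hoxc averaged 5.52 ± 0.924 CPM in mutants and 4.95 ± 0.407 CPM in controls, and Hoxd 2.94 ± 0.342 CPM in mutants and 2.34 ± 0.343 CPM in controls. By library Hoxd summed to 3.185 and 2.701 CPM in the mutants and 2.698, 2.012 and 2.324 CPM in the controls. Both mutants thus exceeded all controls in the Hoxd sum, mutant 6 only barely. That sum includes Hoxd8, already listed above as separated, at 1.65 CPM in mutants and 1.22 CPM in controls on average. On FPKM the mean of Hoxd8 was lower in mutants, at 1.03 against 1.24. Among single genes tested, 21.7% had both mutants above all controls. All 39 genes together took 0.00877% and 0.00763% of the reads in mutants and 0.00706%, 0.00613% and 0.00865% in controls.

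**Figure D4:**
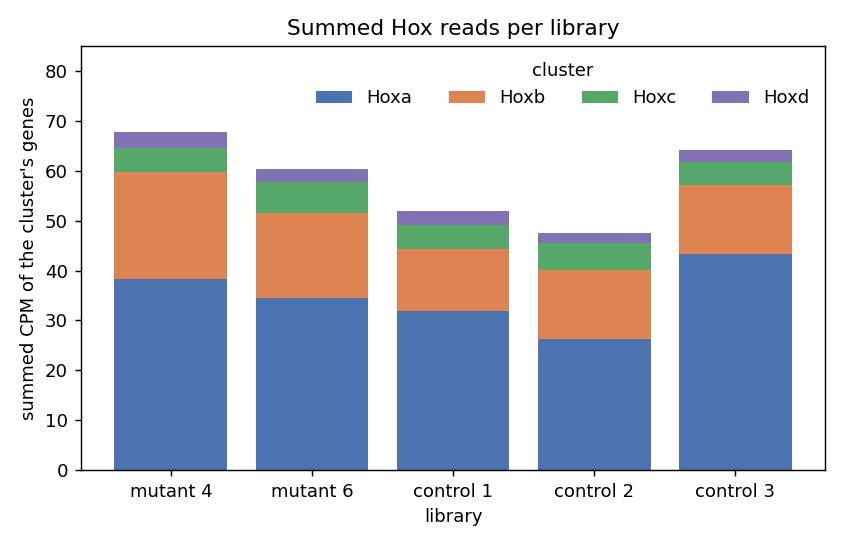
Summed CPM (vertical axis, from 0) of all Hox genes per library, stacked by cluster, mutants left of controls. Hoxa makes up the largest part in every library, and the Hoxb part is 21.3 and 17.1 CPM in the mutants and 12.5 to 13.9 CPM in the controls.

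Markers of cells outside the epithelium were read in the same libraries, and their counts stand beside backgrounds of 6.11% of all genes higher, 4.17% lower and 25.6% at an unadjusted p under 0.05. Of 23 mesenchyme and smooth muscle markers tested, 8 rose and 0 fell, with summed levels of 3745 and 3464 CPM in the mutants and 2497, 2604 and 2855 CPM in the controls, and a median log2 fold change of 0.42. The 8 became 4 without control 1 and 1 without mutant 4. Endothelial markers summed to 269 and 262 CPM in mutants and 196 to 230 CPM in controls, with 0 of 10 called by edgeR (3 at an unadjusted p under 0.05), and immune markers to 436 and 377 CPM in mutants and 251 to 258 CPM in controls, with 1 of 11 called. That one was Csf1r, a macrophage receptor, and without it the immune sums were 262 and 217 CPM in mutants and 194, 181 and 216 CPM in controls. Neural markers summed to 106 and 114 CPM in mutants and 93.0 to 109 CPM in controls. Of 7 tested, S100b and Uchl1 rose and Erbb3 fell, and without Erbb3 the sums were 58.9 and 61.6 CPM in mutants and 29.5, 34.7 and 25.5 CPM in controls. Both sums were taken without that gene after its values were seen. No marker of these lists was at 0 in all libraries. Their part in the Hoxb3, Hoxb7 and Hoxb values was not tested, and in areas of mixed tissue more cells of a type and more RNA per cell cannot be told apart.

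Transcripts lying inside the clusters were few. Of 31 other genes that the reference places between the outer Hox genes, 11 had a row and 2 had enough reads. Hoxaas3, a noncoding RNA on the strand opposite the middle of Hoxa (listed as 2700086A05Rik), had 27 and 26 counts in the mutants and 17, 3 and 12 in the controls, with a log2 value of 1.74 ± 0.62 (edgeR adjusted p = 0.0954). Both mutants were above all controls, and the call was made with no filter on low counts and with the edgeR exact test (adjusted p = 0.0484 and 0.0305) but not in the default test. Its exons share 76 bases with Hoxa3 in GRCm38, and the library kits as described do not record strand, so those reads cannot be assigned. Hoxa11 and its antisense partner share 568 bases, and both were at 0. The rows of the microRNA genes Mir10a, Mir10b, Mir196a-1, Mir196a-2, Mir196b and Mir615 held 0 or 1 count per library, in libraries not made for short RNAs.

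Lists of genes that act with or on Hox genes were read in the same fit, against the same backgrounds of 6.11% higher, 4.17% lower and 25.6% at an unadjusted p under 0.05, and the counts of 0 to 2 calls are not read as results about a list. Among 3 tested ParaHox and caudal genes 1 fell: Cdx2, the caudal homeobox factor of intestinal identity and a known activator of Hox genes. It was 28.3 and 28.2 CPM in mutants and 54.6, 43.5 and 65.1 CPM in controls, with a log2 value of -0.94 ± 0.18 (edgeR adjusted p = 0.00454), which passed without any 1 library and missed the threshold on FPKM with a mean of at least 1 (limma adjusted p = 0.0556). Its relative Cdx1 was 86.4 and 108 CPM in mutants and 133, 118 and 131 CPM in controls (-0.39 ± 0.14; edgeR adjusted p = 0.0947). Of 8 tested TALE cofactors, the Pbx, Meis and Pknox proteins that bind DNA beside Hox proteins, 0 passed edgeR's test, and 2 had an unadjusted p under 0.05. Meis1 was 12.8 and 14.1 CPM in mutants and 9.30, 6.45 and 9.01 CPM in controls (0.71 ± 0.24; edgeR adjusted p = 0.0777, and 0.0485 with the exact test), and Pbx2 was 23.5 ± 2.27 CPM in mutants and 31.1 ± 2.96 CPM in controls (edgeR adjusted p = 0.148).

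Among 15 tested genes of the MLL and trithorax complexes, which keep Hox genes active, 2 rose and 0 fell. The median log2 fold change of the list was -0.24, and 5 genes had an unadjusted p under 0.05. Besides the genes that rose, these were Setd1a (-0.51 ± 0.19), Rbbp5 (-0.39 ± 0.17) and Kmt2c (-0.34 ± 0.14), all lower in the mutants. They missed the threshold (edgeR adjusted p = 0.105, 0.166 and 0.140). Ash2l, a core subunit, was 137 and 121 CPM in mutants and 54.0, 60.1 and 47.4 CPM in controls (1.26 ± 0.14; edgeR adjusted p = 7.16e-05). Kdm6a, an X-linked demethylase of the Polycomb mark, was 125 ± 9.78 CPM in mutants and 81.4 ± 6.90 CPM in controls (0.62 ± 0.13; edgeR adjusted p = 0.00873), and missed the threshold without mutant 4 (adjusted p = 0.139). The Kdm6a values split the libraries in the way the Y-linked reads do, and the part of sex-linked differences was not tested. Of 12 tested retinoic acid genes, whose ligand activates low-numbered Hox genes, 0 passed edgeR's test (4 at an unadjusted p under 0.05), and of 11 tested genes flanking the clusters the heterochromatin protein gene Cbx5 fell (-0.54 ± 0.14; edgeR adjusted p = 0.0263). Of 36 tested genes on a list of other homeobox genes, which leaves out the TALE, ParaHox and caudal genes above, 1 fell. It was Pou2f1 (-0.60 ± 0.14; edgeR adjusted p = 0.0166). Cbx5 missed the threshold without control 1, mutant 4 or mutant 6 (adjusted p = 0.107, 0.119 and 0.218), and Pou2f1 without mutant 6 (adjusted p = 0.218). On log2(FPKM + 1) the limma adjusted p was 0.148 for Kdm6a, 0.136 for Cbx5 and 0.296 for Pou2f1.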

How the data were processed

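The authors deposited raw read counts and FPKM per RefSeq transcript, 28644 rows each, from amplified RNA of laser-captured cells; build mm9 and edgeR are named per the submitters' processing notes, and no source used here gives the aligner or counter. The deposited counts of all 5 libraries were tested in R 4.3.3 with edgeR 4.0.16 (quasi-likelihood test, TMM, default low-count filter, no covariate, 3 residual degrees of freedom), and p-values were Benjamini-Hochberg adjusted over 19353 rows (14572 genes). Each SE was taken as the size of the log2 fold change divided by the root of its F statistic. The script was tested on simulated data. Alternatives used other scalings and filters, DESeq2 1.42.0, the exact test, limma 3.58.1 (voom, and log2 of the deposited FPKM plus 1 or 0.1), the lowest row per gene and each library left out. In 41 rows a date in place of the symbol was replaced by transcript. Coordinates, gene order and promoters are from GRCm38.p6 and exons from GENCODE M21, not the authors' build.

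Values per library are given for called Hox genes, the highest gene of each cluster and genes with a mean count of at least 20; of other lists, the called members with the smallest p. Members and lists were chosen with earlier results of these data known. Genes of other lists not called (Cdx1, Meis1, Pbx2, Setd1a, Rbbp5, Kmt2c, Hoxaas3) and the 4 printed promoters were named after their values were seen. Values of 1 Hox gene are not reported here singly, and counts and sums over the family include it.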

Additional observations from a re-analysis of the deposited data

How the results depend on the processing

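No setting called a Hox gene in either direction: the count was 0 of between 5 and 28 tested, and the smallest adjusted p of each setting lay between 0.0756 and 0.350. No paired analysis was possible because the groups share no replicate numbers. Of 210 fold changes of single Hox genes under other settings, 192 kept their sign. On FPKM with pseudocount 1 the signs turned for Hoxa2 (0.0629, also with a mean FPKM of at least 1), Hoxb2 (-0.50), Hoxc5 (-0.10) and Hoxd8 (-0.12, also with that mean), and with pseudocount 0.1 for Hoxa2 (0.0755), Hoxb2 (-0.99), Hoxc5 (-0.23) and Hoxd8 (-0.17). Leaving out 1 library turned Hoxa2 (-0.15 to 0.10), Hoxa3 (-0.27 to 0.30), Hoxa4 (-0.0085 to 0.63), Hoxb4 (-0.084 to 0.36), Hoxb5 (-0.053 to 0.90) and Hoxc4 (-0.053 to 0.17); the cause was not tested. With 1 mutant left, that library is assumed to vary like the controls.

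Over all genes, 891 rose and 608 fell, and without filter 1331 rose and 935 fell. On FPKM 335, 341 and 258 rose and 131, 165 and 131 fell (pseudocount 1, pseudocount 0.1, mean of at least 1). The share of calls that were rises was 59.4%, and 71.9%, 67.4% and 66.3% on FPKM. Without 1 library 408 to 1057 genes rose and 170 to 645 fell. Of the 39 Hox genes, 25 had too few reads for the default filter, and 11 of these had no read.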
